A study of Mus musculus with 22 samples.

Results

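The genes described here are 32 transcripts by which astrocytes are recognised: 18 that mark astrocyte identity and 14 that mark the reactive state. They were chosen by symbol, and all 32 were found among the 38924 gene IDs measured by RNA sequencing in spinal cords of mice aged 7 months on a background given as B6N;B6J. The mice carry the E196K change of Yars, the tyrosyl-tRNA synthetase, a change known in people with dominant intermediate Charcot-Marie-Tooth neuropathy. The groups were E196K/E196K (HOM, 10 libraries), E196K/+ (HET, 6 libraries) and wild type (WT, 6 libraries), and no other allele or agent is given in the labels. The labels do not state that the libraries of a group came from separate animals, so each p-value reflects only how these libraries vary, which may be technical.

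Astrocytes tile the spinal cord, where they clear glutamate and potassium released by neurons, couple to each other through gap junctions and cover blood vessels with end-feet rich in water channels. After injury or in disease they become reactive: intermediate filament genes such as Gfap and Vim are transcribed more, together with genes for secreted and surface proteins, in part through cytokine receptors that activate the transcription factor STAT3. None of the reactive genes is exclusive to astrocytes; Vim, Timp1, Fbln5 and Srgn are also transcribed in connective tissue, vessel or blood cells, while S100b is also made by oligodendrocyte-lineage and Schwann cells and Glul by oligodendrocytes.

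Levels are CPM, counts scaled to a common TMM-adjusted library size, and library totals ran from 24.4 M to 42.8 M counts. One library stands apart. HOM 3, the third HOM library in deposition order, held markers of tissues next to the cord: summed over 10 Schwann cell genes it had 3261 CPM, against 505 to 755 CPM in the other 9 HOM libraries, with 500 CPM of Prx, the gene of the Schwann cell protein periaxin, against at most 1.31 CPM in any of the other 21 libraries. Its 10 fibroblast and meningeal markers summed to 660 CPM, against 71.0 to 83.3 CPM in the other HOM libraries, and its blood and neutrophil markers to 1800 CPM, against 184 to 880 CPM. Its oligodendrocyte markers summed to 16130 CPM, below the 20210 to 22900 CPM of the other HOM libraries, and its neuron markers to 5782 CPM, below 6518 to 7605 CPM. Fold changes of HOM given below for a named gene or a list are therefore also given without HOM 3. Yars itself was at a median of 122 CPM in HOM, 113 CPM in HET and 114 CPM in WT, which does not check the labels, since a change of one amino acid need not alter the transcript level.

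No member passed the test in any genotype comparison. Of the 32 members, 31 had enough counts to be tested, and with edgeR's quasi-likelihood test and Benjamini-Hochberg adjustment over 16974 genes 0 of 31 had an adjusted p below 0.05 in HOM against WT, where 0.0943% of all genes tested did. In HET against WT it was 0 of 31, against 0% of all genes, and in HOM against HET 0 of 31, against 0.106%. DESeq2 called 0 members in each comparison as well. At an unadjusted p below 0.05 the members numbered 2 in HOM against WT (5.91% of all genes), 1 in HET against WT (3.41%) and 4 in HOM against HET (8.8%). Leaving out HOM 3 changed these counts. By the same edgeR test, unadjusted p in HET against WT was then 0.0143 for Osmr, 0.0149 for Emp1, 0.0188 for Fbln5 and 0.0281 for Serpina3n. In HOM against HET, Osmr (0.0107) and Ggta1 (0.0254) were added, and in HOM against WT Cd44 moved from 0.0368 to 0.0562. No member was called without HOM 3 either. The share of all genes at that unadjusted threshold was not computed without HOM 3. The CPM ranges of no member were separate between HOM and WT, between HET and WT or between HOM and HET, which was so for 0.124%, 0.141% and 0.23% of all genes. In bulk tissue, fewer astrocytes and less RNA per astrocyte cannot be told apart, so these levels describe the cord and not single cells.

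**Figure D1:**
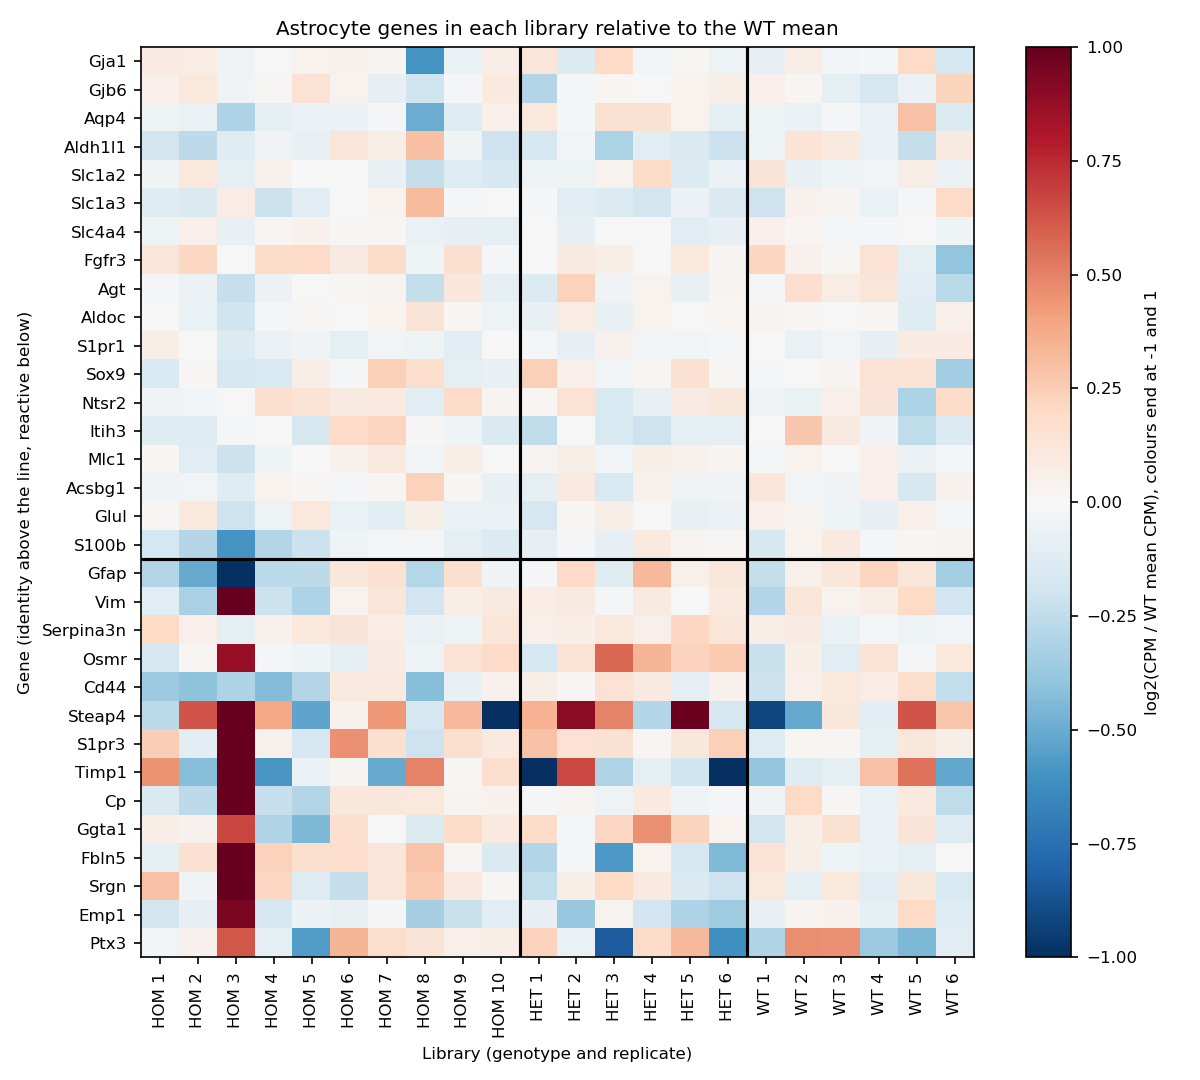
Level of each member (rows) in each library (columns) as log2 of its CPM over the WT mean, identity genes above and reactive genes below the horizontal line, with HOM, HET and WT separated by vertical lines. Most of the 18 identity rows are pale across the genotypes, whereas the column of HOM 3 is dark for most reactive genes, with Gfap in the opposite colour.

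Identity genes and reactive genes covered different parts of the expression range. On a per-length scale, the WT median was 1399 TPM for Aldoc, the aldolase of astrocyte glycolysis, 1207 TPM for Glul, glutamine synthetase, 1153 TPM for Gfap and 856 TPM for S100b, a calcium-binding protein. These 4 stood above at least 99.4% of the genes tested. The glutamate transporter Slc1a2 followed at 402 TPM. The lowest identity gene was Sox9, a transcription factor of glial fate, at 18.6 TPM, and 11 of the 14 reactive genes lay below it, from Srgn at 14.8 TPM to Steap4 at 0.14 TPM. Among the reactive genes only Gfap, Vim (89.0 TPM) and Serpina3n (40.2 TPM) exceeded Sox9 in WT.

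The transporters for glutamate and bicarbonate had overlapping ranges in all 3 genotypes. In what follows, 3 values per genotype are the lowest, median and highest library. Slc1a2, which encodes the glutamate transporter GLT-1, was at 2199, 2491 and 2786 CPM in HOM, 2357, 2499 and 2957 CPM in HET and 2460, 2523 and 2832 CPM in WT. Slc1a3, the gene of the glutamate transporter GLAST, was at 117, 135 and 169 CPM in HOM, 120, 124 and 133 CPM in HET and 117, 136 and 155 CPM in WT. Glul, the enzyme that turns the glutamate taken up into glutamine, was at 1551, 1717 and 1927 CPM in HOM, 1592, 1747 and 1864 CPM in HET and 1685, 1800 and 1856 CPM in WT. The ranges of all 3 genes overlap between every pair of genotypes. The log2 fold change of Slc1a3 was -0.11 in HET against WT (SE 0.0685). In HOM against HET it was 0.097 (SE 0.0615, adjusted p = 0.666), or 0.087 without HOM 3 (SE 0.0633, adjusted p = 0.727). The bicarbonate cotransporter Slc4a4 had the narrowest interval of any identity gene in HOM against WT, with a 95% confidence interval of its log2 fold change from -0.079 to 0.037; without HOM 3 its log2 fold change was -0.015 (SE 0.028, adjusted p = 0.923).

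Among the gap junction and end-foot genes, Gja1, Aqp4 and Mlc1 had HOM libraries below all HET and WT libraries. Gja1, encoding connexin 43, was at 214, 331 and 343 CPM in HOM, 294, 322 and 372 CPM in HET and 287, 319 and 372 CPM in WT. A single HOM library, HOM 8, lay far below the rest of its group, the next HOM library being at 309 CPM. Aqp4, the water channel of end-feet, was at 427, 575 and 624 CPM in HOM, 563, 631 and 667 CPM in HET and 547, 578 and 736 CPM in WT. HOM differed from HET in Aqp4 by a log2 fold change of -0.17 (SE 0.0688, adjusted p = 0.468) and from WT by -0.12 (SE 0.0689, adjusted p = 0.815). Without HOM 3 these were -0.15 (SE 0.069, adjusted p = 0.528) and -0.096 (SE 0.069, adjusted p = 0.807). For Aqp4, 8 of 10 HOM libraries lay inside the WT range, HOM 8 and HOM 3 lay below it, and neither difference passed the test. Gjb6, encoding connexin 30, and Mlc1, an end-foot membrane protein, had HOM medians of 83.5 and 187 CPM, against WT medians of 81.0 and 186 CPM. For Mlc1, HOM 3 at 160.5 CPM and HOM 2 at 173.0 CPM were below the lowest HET (182.7 CPM) and WT (178.9 CPM) libraries.

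Aldh1l1, the folate enzyme widely used as an astrocyte marker, was at 61.3, 70.5 and 90.2 CPM in HOM, 59.0, 65.7 and 72.2 CPM in HET and 62.2, 74.5 and 80.6 CPM in WT. Its log2 fold change was 0.13 in HOM against HET (SE 0.071, adjusted p = 0.623; 0.14 without HOM 3, adjusted p = 0.612) and -0.16 in HET against WT (SE 0.079, adjusted p = 1). Itih3, encoding a heavy chain of a protein that binds hyaluronan, was at 196.2, 214.8 and 254.6 CPM in HOM, 184, 201 and 220 CPM in HET and 184, 217 and 264 CPM in WT. In HOM against HET the log2 fold change of Itih3 was 0.12 (SE 0.0677, adjusted p = 0.637), and 0.12 without HOM 3 as well (SE 0.0714, adjusted p = 0.659). Both genes had their lowest medians in HET, with overlapping ranges.

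The receptor genes pointed in different directions by small amounts. Fgfr3, a fibroblast growth factor receptor, was at 245, 279 and 293 CPM in HOM, 253, 261 and 272 CPM in HET and 193, 258 and 293 CPM in WT. The log2 fold change of Fgfr3 in HOM against WT was 0.11 (SE 0.062, adjusted p = 0.815), the highest of the 18 identity genes, and 0.12 without HOM 3 (SE 0.0636, adjusted p = 0.783). S1pr1, a receptor for the lipid sphingosine 1-phosphate, was at 101, 108 and 116 CPM in HOM, 105, 110 and 115 CPM in HET and 105, 110 and 118 CPM in WT. Its log2 fold change in HOM against WT was -0.045 (SE 0.0314, adjusted p = 0.819), and -0.035 without HOM 3 (SE 0.0305, adjusted p = 0.834). The remaining identity genes were Agt, encoding angiotensinogen, the neurotensin receptor Ntsr2, Aldoc, Sox9 and Acsbg1, an acyl-CoA synthetase; their log2 fold changes in HOM against WT lay within the range from -0.18 to 0.11 spanned by the 18, and without HOM 3 within -0.14 to 0.12.

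S100b was the identity gene with the smallest p. Its level was 409, 552 and 609 CPM in HOM, 580, 614 and 660 CPM in HET and 549, 625.2 and 654 CPM in WT. HOM differed from WT by a log2 fold change of -0.18 (SE 0.0624, adjusted p = 0.694) and from HET by -0.17 (SE 0.0624, adjusted p = 0.405). Without HOM 3 these were -0.14 (SE 0.0448, adjusted p = 0.541) and -0.13 (SE 0.0448, adjusted p = 0.324). S100b overlaps Dip2a on the opposite strand, and the strand setting of the counting is not given in the sources used here, so reads of the 2 genes may not be told apart; Dip2a was at 217 CPM in the median HOM library and 221 CPM in the median WT library.

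The centre and the precision of the reactive genes both changed when HOM 3 was left out. In HOM against WT the median log2 fold change was -0.018 over the 18 identity genes and 0.12 over the 13 reactive genes tested, beside 0.0065 over all genes tested. Of the identity genes 4 were on the higher side and 14 on the lower, of the reactive genes 11 and 2, while 53.7% of all genes were on the higher side. Without HOM 3 the medians were -0.014 and 0.011, with 7 higher and 11 lower identity genes and 7 higher and 6 lower reactive genes, beside 51.2% of all genes higher. The median distance from the estimate to the end of its 95% interval was 0.126 log2 units over the identity genes and 0.316 over the reactive genes. The standard error was below 0.1 for all 18 identity genes and for 2 of the 13 reactive genes, with medians of 0.0611 and 0.151. Without HOM 3 it was below 0.1 for all 18 identity genes and for 10 of the 13 reactive genes, with medians of 0.0601 and 0.0853; the exceptions were Gfap, Steap4 and Ptx3.

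**Figure D2:**
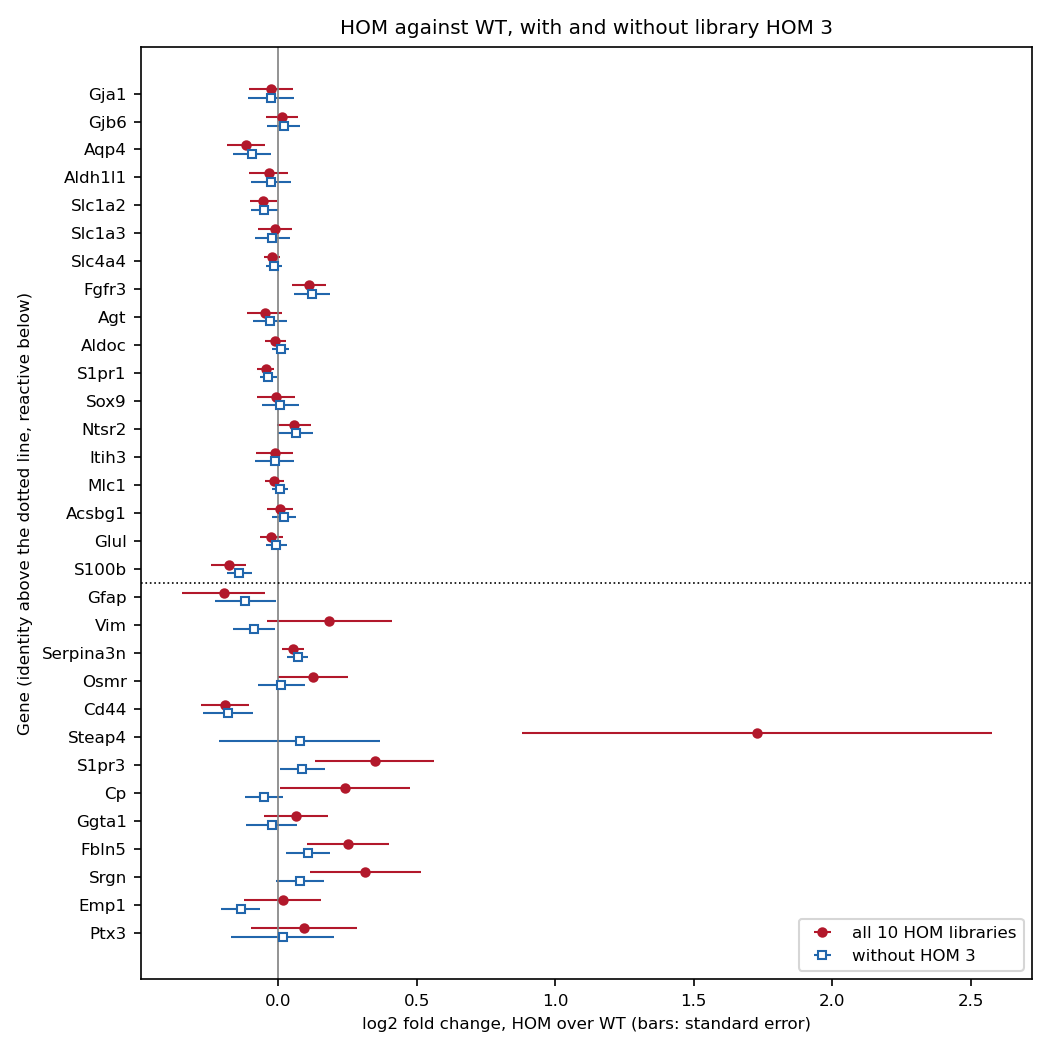
Log2 fold change of HOM over WT for the 31 members tested (points, with bars of 1 standard error), with all 10 HOM libraries (filled circles) and without HOM 3 (open squares). Identity genes lie between -0.18 and 0.12 in both fits, whereas Steap4 lies at 1.73 with HOM 3 and at 0.077 without it.

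In HET against WT the medians were -0.0061 over the identity genes (7 higher, 11 lower) and 0.058 over the reactive genes (8 higher, 5 lower), beside 51.9% of all genes higher. Both comparisons use the same WT libraries. All libraries share a single fit, so HOM 3 also enters the errors of HET against WT. The median standard error of the reactive genes there was 0.17 with HOM 3 and 0.0927 without it. In HOM against HET they were 0.0012 over the identity genes (9 higher, 9 lower) and 0.16 over the reactive genes (8 higher, 5 lower), beside 53% of all genes higher. Without HOM 3 the identity median in HOM against HET was 0.020, with 10 higher and 8 lower. The reactive median was then -0.074, with 4 higher and 9 lower, beside 50.5% of all genes higher. The direction of the reactive median against HET thus rested on HOM 3.

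Within each library, the median over the reactive genes minus the median over the identity genes, both as log2 over the WT mean, was 1.17 in HOM 3. It ran from -0.23 to 0.11 in the other 9 HOM libraries, from 0.035 to 0.098 in HET and from -0.19 to 0.15 in WT. Apart from HOM 3, HOM libraries thus lay on both sides of 0, and all HET libraries lay above it. WT libraries also lay on both sides, but that follows largely from setting each gene on its WT mean.

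Gfap, a filament protein used as a marker of reactive astrocytes, was at 683, 1314 and 1763 CPM in HOM, 1452, 1673 and 1981 CPM in HET and 1249, 1675 and 1834 CPM in WT. Its transcript was already abundant in WT, at a median of 1153 TPM, so a high level by itself does not mark reactivity. Whether changes in its level follow reactivity in these cords was not tested. Relative to WT, HOM had a log2 fold change of -0.20 (SE 0.151, adjusted p = 0.821), and relative to HET of -0.29 (SE 0.151, adjusted p = 0.598). The HOM libraries spread over a wider range than either other genotype, and the lowest was HOM 3. Without HOM 3 the log2 fold changes of Gfap were -0.12 (adjusted p = 0.849) and -0.22 (adjusted p = 0.592). Vim, encoding the filament partner vimentin, was at 53.3, 65.1 and 193 CPM in HOM, 66.5, 70.7 and 71.7 CPM in HET and 54.5, 69.3 and 76.8 CPM in WT. In HOM against WT its log2 fold change was 0.18 (SE 0.225, adjusted p = 0.871), and -0.088 without HOM 3 (SE 0.0764, adjusted p = 0.836). The sign for Vim thus depended on that library.

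Serpina3n, a secreted inhibitor of serine proteases, was at 40.4, 44.8 and 49.2 CPM in HOM, 44.4, 45.4 and 49.6 CPM in HET and 41.0, 42.3 and 45.4 CPM in WT. Over WT, its log2 fold change in HOM was 0.055 (SE 0.04, adjusted p = 0.819), or 0.070 without HOM 3 (SE 0.0386, adjusted p = 0.791), and in HET 0.099 (SE 0.0447, adjusted p = 1). Its 95% interval in HOM against WT ran from -0.028 to 0.14, the narrowest of the reactive genes. Serpina3n belongs to a family of close copies, between which reads may be shared.

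The surface receptors gave small or library-bound differences. Cd44, the hyaluronan receptor, was at 15.8, 17.3 and 22.9 CPM in HOM, 20.2, 22.2 and 23.7 CPM in HET and 18.0, 22.3 and 24.2 CPM in WT. For Cd44 the log2 fold change of HOM over WT was -0.19 (SE 0.087, adjusted p = 0.815) and of HOM over HET -0.24 (SE 0.087, adjusted p = 0.409). Without HOM 3 these were -0.18 (SE 0.0897, adjusted p = 0.769) and -0.23 (SE 0.0897, adjusted p = 0.448). In 6 of 10 HOM libraries Cd44 lay below the lowest HET library, and neither difference passed the test. Of these 6 libraries, 5 have titles beginning 39992, a number that no HET library has. Osmr, the receptor of the cytokine oncostatin M, was at 5.38, 6.04 and 11.0 CPM in HOM, 5.34, 7.17 and 8.97 CPM in HET and 5.19, 6.14 and 6.68 CPM in WT. Osmr had a log2 fold change of 0.12 in HOM against WT (SE 0.126, adjusted p = 0.849) and of 0.24 in HET against WT (SE 0.14, adjusted p = 1). In HOM against HET it was -0.12 (SE 0.125, adjusted p = 0.813). Leaving out HOM 3, Osmr in HOM differed from WT by a log2 fold change of 0.011 (SE 0.0853, adjusted p = 0.987) and from HET by -0.23 (SE 0.0843, adjusted p = 0.37). S1pr3, another sphingosine 1-phosphate receptor, was at 5.00, 6.33 and 18.3 CPM in HOM, 5.87, 6.40 and 7.10 CPM in HET and 5.31, 5.84 and 6.24 CPM in WT. Its log2 fold change in HOM against WT was 0.35 (SE 0.215, adjusted p = 0.815), and 0.088 without HOM 3 (adjusted p = 0.849).

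Secreted and matrix genes were at low levels in every genotype. Cp, encoding the copper oxidase ceruloplasmin, was at 12.98, 16.34 and 49.91 CPM in HOM, 15.3, 15.8 and 17.0 CPM in HET and 13.4, 15.8 and 18.3 CPM in WT. The log2 fold change of Cp in HOM against WT was 0.24 (SE 0.235, adjusted p = 0.844), and -0.052 without HOM 3 (SE 0.0693, adjusted p = 0.895). Cp overlaps Hps3 on the opposite strand, which was at 30.6 CPM in the median HOM library and 30.2 CPM in the median WT library. Fbln5, the elastic fibre protein fibulin-5, was at 9.37, 11.5 and 23.1 CPM in HOM, 6.96, 8.82 and 10.6 CPM in HET and 9.70, 10.2 and 11.4 CPM in WT. Its log2 fold change in HOM against HET, 0.48 (SE 0.15, adjusted p = 0.325), had the smallest p of any member in any comparison, and without HOM 3 it was 0.33 (SE 0.0808, adjusted p = 0.109). In HOM against WT it was 0.25 (SE 0.148, adjusted p = 0.815), and 0.11 without HOM 3. The HOM median of Fbln5 was above the WT median and the HET median below it, and all 3 ranges overlap.

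Srgn, the proteoglycan core protein serglycin, was at 4.33, 5.52 and 15.05 CPM in HOM, 4.31, 4.98 and 5.89 CPM in HET and 4.60, 5.16 and 5.53 CPM in WT, and its log2 fold change in HOM against HET was 0.34 (SE 0.202, adjusted p = 0.643). Without HOM 3 that value was 0.10. Steap4, a membrane metalloreductase, was at 0.075, 0.26 and 5.44 CPM in HOM, 0.19, 0.31 and 0.45 CPM in HET and 0.12, 0.23 and 0.36 CPM in WT. In HOM against WT the log2 fold change of Steap4 was 1.73 (SE 0.848, adjusted p = 0.815), and 0.077 without HOM 3 (SE 0.291, adjusted p = 0.967). Timp1, an inhibitor of matrix metalloproteinases, was too low to be tested, at 0.13, 0.20 and 0.79 CPM in HOM, 0.082, 0.17 and 0.32 CPM in HET and 0.14, 0.19 and 0.29 CPM in WT. Timp1 overlaps Syn1 on the opposite strand, whose median was 375 CPM in HOM and 350 CPM in WT. Ggta1, a galactosyltransferase, Emp1, an epithelial membrane protein, and Ptx3, a secreted pentraxin, had HOM medians of 5.58, 5.36 and 0.78 CPM, against WT medians of 5.36, 5.65 and 0.65 CPM.

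HOM 3 held most reactive genes at their highest level and Gfap at its lowest. It was the highest HOM library for 11 of the 14 reactive genes, and in all 11 it was above all other 21 libraries. Over all genes tested, HOM 3 was the highest HOM library for 22.9%. The share of all genes tested above all other 21 libraries, here and for the lists below, was not computed and cannot exceed that value. Relative to the median of the other 9 HOM libraries its level was 22.97 times for Steap4, 3.92 times for Timp1, 3.13 times for Vim, 3.08 times for Cp, 2.95 times for S1pr3 and 2.75 times for Srgn. For Emp1, Fbln5, Osmr, Ggta1 and Ptx3 the ratio ran from 2.08 to 1.48. Gfap was at 683 CPM in HOM 3, 0.519 times the median of 1317 CPM in the other HOM libraries and below all other 21 libraries. Serpina3n, at 40.4 CPM, was also below all of them, and Cd44, at 17.2 CPM, lay within the range of the others. The reactive genes of HOM 3 thus did not move together.

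Identity genes in HOM 3 were level or lower. It was the lowest HOM library for 7 of the 18, namely Aldoc, S1pr1, Sox9, Mlc1, Acsbg1, Glul and S100b, and the highest for none, while over all genes tested it was the lowest for 20%. The ratio to the median of the other HOM libraries ran from 0.732 for S100b to 1.06 for Slc1a3, with a median of 0.924. The share of the Schwann cell, connective tissue and blood markers given above in these values was not tested. Of the marker lists, all 10 fibroblast and meningeal genes, all 10 blood and neutrophil genes, 9 of 10 endothelial genes, 8 of 10 pericyte and smooth muscle genes, 7 of 10 Schwann cell genes and 7 of 10 ependymal genes were above all other 21 libraries in HOM 3. None of the markers of these lists was at 0 in every WT library.

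**Figure D3:**
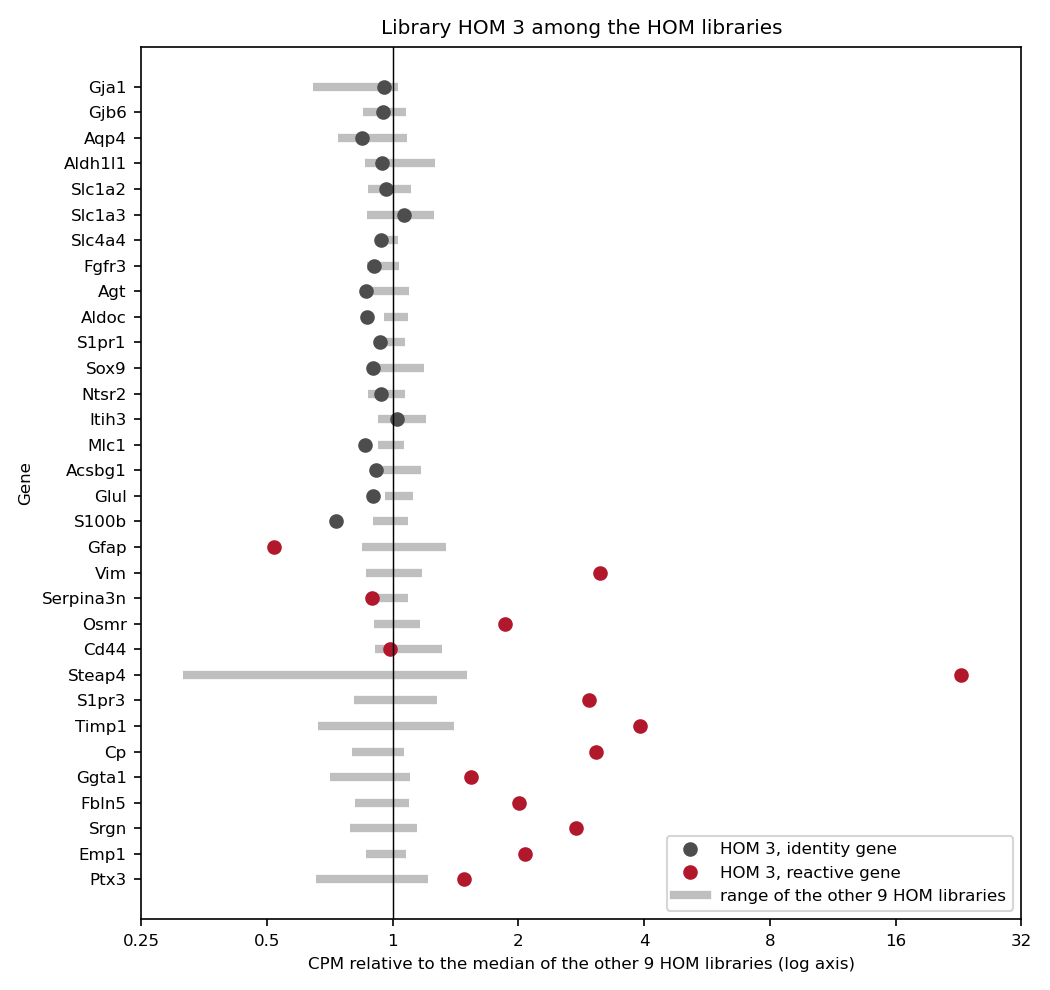
CPM of each member in HOM 3 (points) divided by the median of the other 9 HOM libraries, on a log axis, with grey bars for the range of those 9 libraries. Steap4 stands at 22.97 and Vim at 3.13, Gfap at 0.519, and the identity genes between 0.732 and 1.06.

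The sequence before a RefSeq gene start (build GRCm38.p6) is shown for Steap4 and Emp1, which were highest in HOM 3 and hold the only matches of the reactive genes to TTCNNNGAA, the palindrome bound by STAT factors, and for Gfap, which was lowest there and holds none. The other reactive genes that were highest in HOM 3, Vim, S1pr3, Cp and Srgn among them, hold no such match either. Whether a match goes with the level in HOM 3 was not tested. Capitals mark matches to TTCNNNGAA and to TGANTCA, an AP-1 type motif, searched on both strands in the 250 bases before the start.
Steap4: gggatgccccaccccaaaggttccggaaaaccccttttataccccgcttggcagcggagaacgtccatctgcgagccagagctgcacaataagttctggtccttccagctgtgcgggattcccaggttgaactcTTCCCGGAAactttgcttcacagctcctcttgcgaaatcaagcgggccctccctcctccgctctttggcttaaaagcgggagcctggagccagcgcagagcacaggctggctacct
Emp1: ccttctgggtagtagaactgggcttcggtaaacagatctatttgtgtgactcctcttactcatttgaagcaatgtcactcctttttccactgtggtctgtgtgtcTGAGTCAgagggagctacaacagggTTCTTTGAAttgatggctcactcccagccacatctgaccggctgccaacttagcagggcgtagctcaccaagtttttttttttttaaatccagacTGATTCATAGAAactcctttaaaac
Gfap: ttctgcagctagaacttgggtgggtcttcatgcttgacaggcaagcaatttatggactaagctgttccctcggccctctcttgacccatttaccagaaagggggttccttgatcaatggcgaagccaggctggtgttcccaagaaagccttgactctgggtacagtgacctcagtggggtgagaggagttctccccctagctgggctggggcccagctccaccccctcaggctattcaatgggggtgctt
The windows are chr5:7960222-7960471 on the plus strand, chr6:135362681-135362930 on the plus strand, the first of the windows listed for Emp1, and chr11:102897201-102897450 on the minus strand. Another window listed for Emp1, chr6:135367243-135367492, holds no match to either motif. The printed Emp1 and Gfap windows lie inside the spans that GENCODE gives these genes, so both genes have annotated starts further upstream. In Steap4 the match TTCCCGGAA begins 116 bases before the start, at -116. In Emp1 the AP-1 type match TGAGTCA begins at -145 and TTCTTTGAA at -120, and at -25 TGATTCATAGAA holds a match to each motif, overlapping by 4 bases. Of the 29 members with a window in the table, TTCNNNGAA was found in 2 of 14 reactive genes and in 5 of 15 identity genes (Slc1a3, Agt, Aldoc, Ntsr2 and Acsbg1), beside 8.13% of 27025 genes. TGANTCA was found in Cp and Emp1 and, among identity genes, in Gja1, beside 7.82% of genes. Aqp4, S1pr1 and Sox9 had no entry. The identity genes with a STAT-type match were within the range of the other HOM libraries or, for Aldoc and Acsbg1, below it in HOM 3.

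Some levels also differed with the number that begins each library's title, which the labels do not explain. Of the HOM libraries 5 have titles beginning 39992, 3 begin 40411 and 2 begin 40412; of the HET libraries 1 begins 40411 and 5 begin 40412; of the WT libraries 1, 2 and 3 begin 39992, 40411 and 40412. Leaving out HOM 3, the 4 HOM libraries of 39992 were below the other 5 without overlap for S100b, at 502 to 545 CPM against 558 to 609 CPM, for Slc1a3, at 117 to 125 CPM against 134 to 169 CPM, for Cp, at 12.98 to 14.41 CPM against 16.2 to 17.2 CPM, and for Ptx3. These are 4 of the 31 members tested, beside 2.44% of all genes tested, and 0 members lay above without overlap, beside 2.15%. The single WT library of 39992 was the lowest WT library for S100b, at 549 CPM, and for Slc1a3, at 117 CPM, but not for Cp, at 15.52 CPM, or Ptx3, at 0.61 CPM. Cd44 was at 15.84 to 17.45 CPM in the 4 HOM libraries of 39992 and at 15.96 to 22.92 CPM in the other 5, and Gfap at 1115 to 1317 CPM and 1300 to 1763 CPM. With 5 HOM libraries, 1 WT library and no HET library in 39992, genotype and title number are partly confounded.

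Within title numbers the differences varied in size and, for some genes, in sign. For S100b the difference of HOM minus WT in mean log2(CPM + 0.5) was -0.15 in 39992, -0.087 in 40411 and -0.13 in 40412. Gfap gave -0.27, -0.087 and 0.065, and Cd44 -0.14, -0.15 and -0.017. Without HOM 3 the 39992 values were -0.080 for S100b, -0.095 for Gfap and -0.16 for Cd44. The 39992 values set 5 HOM libraries against 1 WT library, so they carry no test. With the title number as a factor in the fit, the log2 fold change of HOM over WT was -0.11 for S100b (SE 0.0477, adjusted p = 0.916), -0.10 for Cd44 (SE 0.0712, adjusted p = 0.916) and -0.065 for Gfap (SE 0.132, adjusted p = 0.95). With HOM 3 left out as well, these were -0.095 for S100b (adjusted p = 0.614), -0.10 for Cd44 (adjusted p = 0.823) and -0.028 for Gfap (adjusted p = 0.959). For HOM over HET the title-number fit gave -0.10 for Cd44 (SE 0.0806), -0.077 for S100b (SE 0.0545) and -0.085 for Gfap (SE 0.151). Leaving out HOM 3 as well gave -0.11, -0.068 and -0.065. Within 40411 and 40412, HOM minus HET was -0.14 and -0.057 for Cd44, 0.056 and -0.13 for S100b, and 0.012 and -0.050 for Gfap. Fbln5 in HOM against HET differed by 0.46 in 40411 (3 against 1 libraries) and by 0.15 in 40412 (2 against 5), and with the title number as a factor its log2 fold change was 0.30 (SE 0.178, adjusted p = 1), and 0.26 with HOM 3 left out as well (SE 0.0956, adjusted p = 0.775). Over the 14 reactive genes the median difference of HOM minus WT was 0.18 in 39992, 0.026 there without HOM 3, 0.0050 in 40411 and 0.067 in 40412. Over the 18 identity genes it was -0.057, -0.028 without HOM 3, -0.014 and -0.023.

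**Figure D4:**
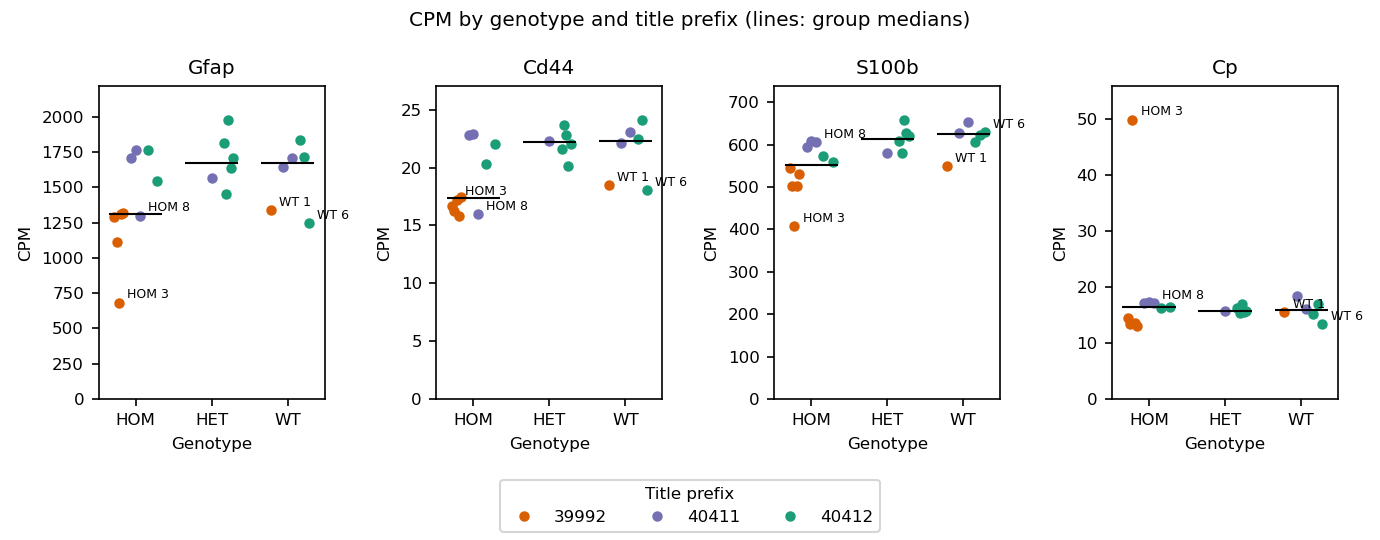
CPM of Gfap, Cd44, S100b and Cp in each library by genotype (HOM, HET, WT) and coloured by the first number of the library title, with lines at the group medians. For S100b and Cd44 the HOM libraries of 39992 lie at or below 545 and 17.45 CPM, and the WT library of that number at 549 and 18.48 CPM.

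Single libraries other than HOM 3 differed within the identity genes in opposite directions. HOM 8 was the lowest HOM library for 7 of the 18, Gja1 (214 CPM), Gjb6, Aqp4 (427 CPM), Slc1a2, Fgfr3, Agt and Ntsr2, and the highest for 4, Aldh1l1 (90.2 CPM), Slc1a3 (169 CPM), Aldoc and Acsbg1 (335 CPM). WT 6 was the lowest WT library for 6 of the 18 and the highest for 4, and the same counts held for WT 5. Like HOM 8 among HOM, WT 6 was lowest for Gja1 (287 CPM), Aqp4 (547 CPM), Fgfr3 and Agt. It was likewise highest for Slc1a3 (155 CPM) and Aldoc and, among the reactive genes, lowest for Emp1. Other genes differed between these libraries, since Gjb6 and Ntsr2 were highest in WT 6 and lowest in HOM 8. WT 6 was also lowest for Slc4a4, Sox9, Gfap, Cd44, Timp1, Cp and Srgn, for which HOM 8 lay between the other HOM libraries. In WT 5 the opposite was seen for Aqp4, at 736 CPM the highest of all 22 libraries, with Aldh1l1 at 62.2 CPM the lowest WT value. The shares of all genes tested for which HOM 8, WT 6 or WT 5 was the lowest or highest of its group were not computed. The counts therefore do not set the identity genes apart from other genes. These are values of single libraries and carry no test.

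**Figure D5:**
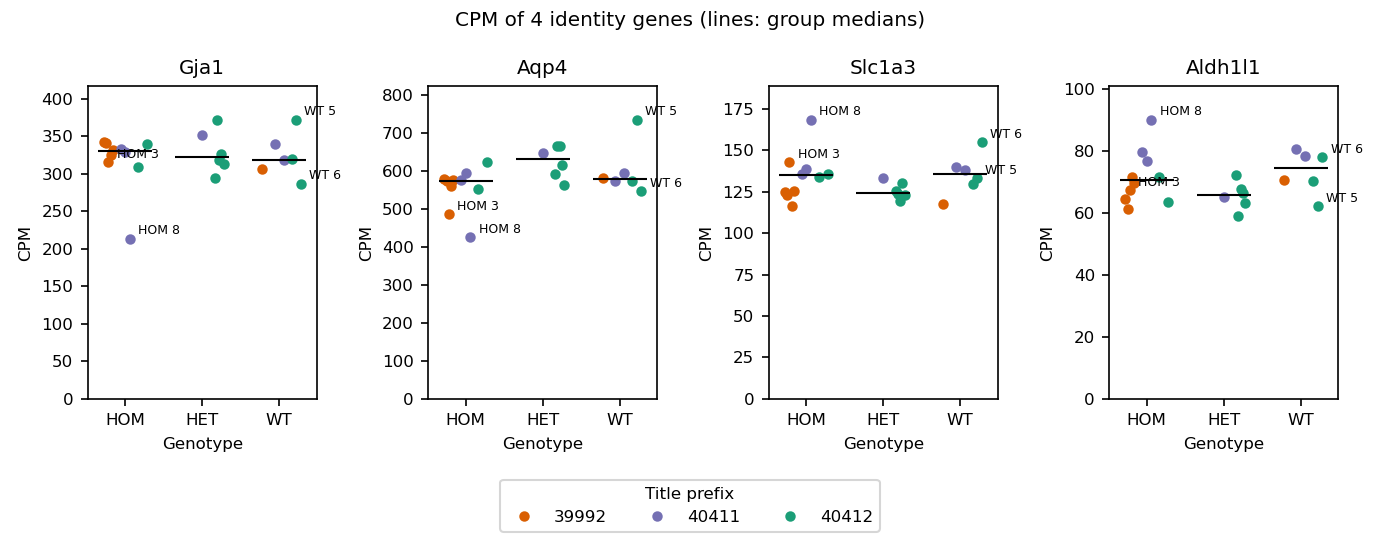
CPM of Gja1, Aqp4, Slc1a3 and Aldh1l1 in each library by genotype (HOM, HET, WT), coloured by title number, with lines at the group medians. HOM 8 is lowest for Gja1 (214 CPM) and Aqp4 (427 CPM) and highest for Slc1a3 (169 CPM) and Aldh1l1 (90.2 CPM).

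Further astrocyte genes, none of them among the 32, gave 0 calls in any genotype comparison. Of 30 other astrocyte genes, all tested, 12 were on the higher side and 18 on the lower in HOM against WT, with a median log2 fold change of -0.011; without HOM 3 these were 13 and 17, with a median of -0.0018. Those with the smallest p were Slc39a12, Fabp7, Bmpr1b and Chrdl1. Fabp7, a fatty acid binding protein, was at 14.1, 17.7 and 29.2 CPM in HOM, 27.5, 29.5 and 35.8 CPM in HET and 20.2, 21.5 and 32.3 CPM in WT, with a log2 fold change of -0.26 (SE 0.138, adjusted p = 0.815), and -0.25 without HOM 3 (adjusted p = 0.795). The HOM median of Fabp7 was below its lowest WT library, with overlapping ranges. In HOM against HET the smallest p was that of Ppp1r3c, which targets a phosphatase to glycogen, with a log2 fold change of -0.29 (SE 0.0645, adjusted p = 0.0717), or -0.27 without HOM 3 (adjusted p = 0.0933); it was at 49.95, 56.59 and 69.43 CPM in HOM, 58.7, 68.4 and 76.9 CPM in HET and 49.4, 53.8 and 62.3 CPM in WT.

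Of 28 other reactive astrocyte genes 26 were tested, and in HOM against WT 18 were on the higher side and 8 on the lower, with a median of 0.068; without HOM 3 these were 11 and 15, with a median of -0.017. The smallest p values belonged to Lcn2, Ptgs2, Serping1 and B3gnt5. In HOM 3, Lcn2, the iron-scavenging lipocalin that is also a neutrophil granule protein, was at 30.6 CPM, against at most 2.53 CPM in the other 21 libraries, and the complement inhibitor Serping1 at 37.7 CPM, against at most 6.23 CPM. HOM 3 was above all other 21 libraries for 16 of these 28 genes and for 2 of the 30 other astrocyte genes. The matching share of all genes tested was not computed, and HOM 3 was the highest HOM library for 22.9% of them. Of 6 genes of astrocyte regional identity, 4 were on the higher side and 2 on the lower in HOM against WT, with the axon guidance genes Slit1 at 0.097 (SE 0.0381, adjusted p = 0.815) and Sema3a at -0.19 (SE 0.0904, adjusted p = 0.815). Without HOM 3, 2 of the 6 were on the higher side and 4 on the lower, with a median of -0.0085 against 0.033 with it, and Slit1 was at 0.095 (adjusted p = 0.702) and Sema3a at -0.13 (adjusted p = 0.76).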

How the data were processed

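The labels' protocols describe TRIzol and miRNeasy RNA from whole cords, DNase treatment, and stranded polyA libraries made with KAPA kits. The deposited expected counts and TPM are columns of RSEM gene tables, per the file headers, and the submitters' processing notes name RSEM 1.2.12 and Bowtie2 2.2.0; the sources used here do not give the genome build, annotation or strand setting. RSEM shares reads between similar genes, so 14.41% to 16.23% of each library's deposited expected counts were not whole, and they were rounded. Symbols were matched by Ensembl ID, and GENCODE M21 positions (GRCm38) served only to find overlapping genes and to place the sequence windows.

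Genes were filtered by filterByExpr (minimum count 10, genotype groups), leaving 16974; all 22 libraries were scaled by TMM and fitted together by the robust quasi-likelihood test of edgeR 4.0.16 (R 4.3.3), with 0.05 as the threshold of the Benjamini-Hochberg adjusted p. Standard errors and 95% confidence intervals come from the F statistic. The deposited TPM values ordered genes by level and were tested on log2(TPM + 1) and log2(TPM + 0.1) with limma 3.58.1; DESeq2 1.42.0 was another alternative. Counting depth limits Steap4, Timp1 and Ptx3 most. The 32 members, the other lists, the rule for genes given in full (those with the smallest p and a fixed set of classic genes) and the tests were chosen with earlier results of these data known. Replicate numbers follow deposition order and pair nothing. One marker gene that the rule would name is not reported here. Xist was used as a covariate because the labels give no sex.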

Additional observations from a re-analysis of the deposited data

Results flagged for a closer look

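In groups of 6 or 10 libraries, a library far from the others by Dixon's test was found in 16 of 96 groups of a gene and a genotype. Chance gives about 1 in 20 for independent groups of normal values, but these groups share libraries. HOM 3 accounted for 10 of the 16, all on the high side and all reactive genes: Vim (193.4 CPM), Osmr (11.03 CPM), Steap4 (5.441 CPM), S1pr3 (18.3 CPM), Timp1 (0.7903 CPM), Cp (49.91 CPM), Ggta1 (8.511 CPM), Fbln5 (23.1 CPM), Srgn (15.05 CPM) and Emp1 (11.0 CPM). The other 6 were identity genes. HOM 8 was far below the other HOM libraries for Gja1, at 213.7 CPM, and far above them for Slc1a3, at 168.5 CPM, and Acsbg1, at 334.9 CPM. HET 1 was far below the other HET libraries for Gjb6, at 67.08 CPM. WT 5 was far above the other WT libraries for Aqp4, at 735.8 CPM, and far below them for Aldoc, at 1312 CPM.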

How the results depend on the processing

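The member genes called were 0 in each comparison under all 33 alternatives. The genes called over the whole table in HOM against WT were 16, against 28 with DESeq2, 25 with HOM 3 left out and the title number as a factor, and 12 to 18 when each library was left out in turn. In HOM against HET they were 18, against 76 with DESeq2, 11 with a mean of at least 1 CPM, 11 with log2(TPM + 1), 10 with the title number as a factor and 30 with HOM 3 left out and Xist as a covariate; leaving out each library gave 10 (without HET 3) to 39 (without HOM 10). In HET against WT 0 genes were called by edgeR and by DESeq2, with 578 at an unadjusted p below 0.05.

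The median of the identity genes in HET against WT, -0.0061, was 0.031 with log2(TPM + 1) and 0.031 with log2(TPM + 0.1), and ran from -0.024 to 0.0065 when each library was left out. That of the reactive genes, 0.058, was 0.19 with Xist as a covariate, 0.022 with HOM 3 left out and the title number as a factor, 0.11 with HOM 3 left out and Xist as a covariate, and 0.0036 to 0.087 when each library was left out, lowest without WT 1 and 0.019 without WT 6. The log2 fold change of HOM over WT reversed for Vim, to -0.088 without HOM 3, -0.0077 with the title number as a factor as well and -0.054 with Xist as well, and for Cp, to -0.052, -0.00675 and -0.0007509, and leaving out each library gave -0.088 to 0.23 for Vim and -0.052 to 0.29 for Cp; the cause was not tested. The fits that combine leaving out HOM 3 with a covariate were chosen after seeing the data. No paired analysis was possible because the replicate numbers only follow the order of deposition. Limits: most reactive genes have wider intervals with HOM 3 than without it, and Steap4, Timp1 and Ptx3 rest on few counts.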
